A study of Mus musculus with 4 samples.

Results

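Ribosome biogenesis and nucleolar genes were followed in basal cells sorted from mouse tail epidermis. The set held 39 genes, listed by name and matched to the gene symbols of the array platform. A probe set is a group of array probes read together as 1 value, and some probe sets match several transcripts. At least 1 was named for a single member in 38 of the 39, and these 38 had 78 probe sets among them. Mrto4, a large subunit assembly factor, had only a probe set shared with another symbol and was not analysed here. The whole series had 18193 genes with a named probe set.

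Ribosomes are assembled in the nucleolus. RNA polymerase I transcribes a long precursor RNA there, small nucleolar ribonucleoproteins (snoRNPs) modify it, and successive sets of factors cut it and fold it with ribosomal proteins into the small and the large subunit. Dividing cells make many ribosomes, and the transcription factor MYC is known to drive many of these genes through the promoter sequence called the E-box. In the epidermis the basal layer holds the dividing cells, and the layers above it hold cells that have stopped dividing and are differentiating.

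The study hybridised 4 Affymetrix Mouse Genome arrays, 2 for each of a pair of CD-1 mouse lines. Both lines carry a tamoxifen-inducible Cre recombinase and a RosaYFP reporter that Cre switches on. In K14CREER/RosaYFP mice the keratin 14 promoter drives Cre, and 1 ug of tamoxifen was injected. In InvCREER/RosaYFP mice the involucrin promoter drives Cre, and 10 ug was injected, so that the Cre line and the dose cannot be told apart. The titles give 3.5 days after induction and the treatment protocol gives 4 days. Living YFP-positive cells with high alpha6 integrin and no CD34 on their surface were sorted in both lines. The labels give neither the ages of the mice nor whether a line's arrays are from different animals. The p-values therefore measure only how these samples vary, and in K14CREER that variation may be technical. The InvCREER arrays differed in sex-linked genes, given below, so they were not repeats of the same RNA. The comparison sets basal cells in which involucrin-driven Cre had acted against basal cells in which keratin 14-driven Cre had acted.

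Values are log2 levels, on which a step of 1 is a doubling, and levels of different probe sets are not comparable with each other. All arrays carried the basal markers of the labelled cell type: 8 of 8 were above the intensity filter (a mean log2 level of 5.42), with list means of 12.46 to 12.51 in K14CREER and 11.59 to 11.69 in InvCREER. The 7 spinous markers, of the layer above, averaged 10.68 in K14CREER and 12.25 to 12.42 in InvCREER. Dermal fibroblast markers averaged 7.27 on K14CREER 1, 6.40 on K14CREER 2 and 5.83 to 6.01 in InvCREER. Of these, Col1a1, Col3a1, Pdgfra and Lum were under the filter. InvCREER 1 stood apart from the other arrays in more measures. Sebaceous gland markers averaged 9.70 there, 8.19 on InvCREER 2 and 6.66 to 7.10 in K14CREER, with Fabp4 under the filter. Langerhans and myeloid markers averaged 7.14, 5.87 and 5.08 to 5.31, with Ptprc, Lyz2, Tyrobp and Fcer1g under it. InvCREER 2 was thus above K14CREER as well. All 10 tested sebaceous genes and all 6 tested Langerhans and myeloid genes were higher in InvCREER without overlap, against 21.3% of all tested genes. The filter uses the mean over all 4 arrays, so a dim gene could pass it through high InvCREER values alone. These tallies leave out the genes under it, so their comparison with 21.3% is partly fixed by the filter. On InvCREER 1 the Y-linked gene Eif2s3y was at 7.49 against 9.89 to 10.25 on the other arrays. Y-linked Uty was at 4.70 against 7.19 to 7.85, and Y-linked Kdm5d at 5.04 against 7.01 to 8.09. Xist, a transcript of female cells, was at 12.56 there, 8.26 on InvCREER 2 and 5.44 to 7.25 in K14CREER. The log2 ratio of 3' to 5' Actb probe sets, a sign of RNA quality, was 1.24 on InvCREER 1 against 0.68 to 0.94. The members' values without that array are summarised after the comparison of the whole set, and given for single genes where the text ranks them.

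The ribosome biogenesis genes lay at nearly the same level in both lines. Over the 38 genes, each read on its probe set with the highest mean, the median difference was 0.04 in log2 units (InvCREER minus K14CREER), against -0.01 over all 11270 tested genes. Differences ran from -0.32 for Emg1 to 0.42 for Nhp2. None of the 38 genes differed by 1.5-fold or more, against 16.2% of all tested genes. The mean was higher in InvCREER for 22 genes and lower for 16.

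No member passed the test. limma called 0 of the 38 genes and 0 of their 68 tested probe sets at a Benjamini-Hochberg adjusted p under 0.05, where it called 0.959% of all 22519 tested probe sets and 1.33% of genes. At an unadjusted p under 0.05 there was 1 member, Nhp2, against 16.1% of all tested genes. The arrays of the lines did not overlap for 14 of the 38 genes, a share of 36.8%, against 45.3% of all tested genes. With InvCREER lower this was 8 genes, against 24.1% of all genes, and with InvCREER higher 6 genes, against 21.3%.

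A missed threshold does not show that a gene is at the same level in both lines, and the test is weak with 2 arrays per line, so the intervals carry the result. The 95% confidence interval of limma was read on 1 probe set per gene and not adjusted for the number of genes. It stayed inside a 2-fold difference in either direction for 38 of 38 members, against 71.4% of all tested genes. These shares were not matched for level. The members' median level was 9.61 against 8.31 over all tested genes, and their median SE was 0.20 against 0.23. The lowest bound was -0.79 (Ddx21) and the highest 0.94 (Ftsj3). The interval stayed inside 1.5-fold for 13 members, among them all 3 box C/D genes. For the other 25 it reached past 1.5-fold in at least 1 direction. These counts and bounds depend on the probe set chosen. Further tested probe sets of Nhp2 (to 1.14), Noc2l (to 1.11), Heatr1 (to 1.19) and Imp4 (to 1.03) had intervals that passed 2-fold upward. Those of the remaining members stayed inside 2-fold, with a lowest bound of -0.93 (Nolc1). In bulk RNA, fewer cells with a high level and a lower level in every cell cannot be told apart.

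**Figure D1:**
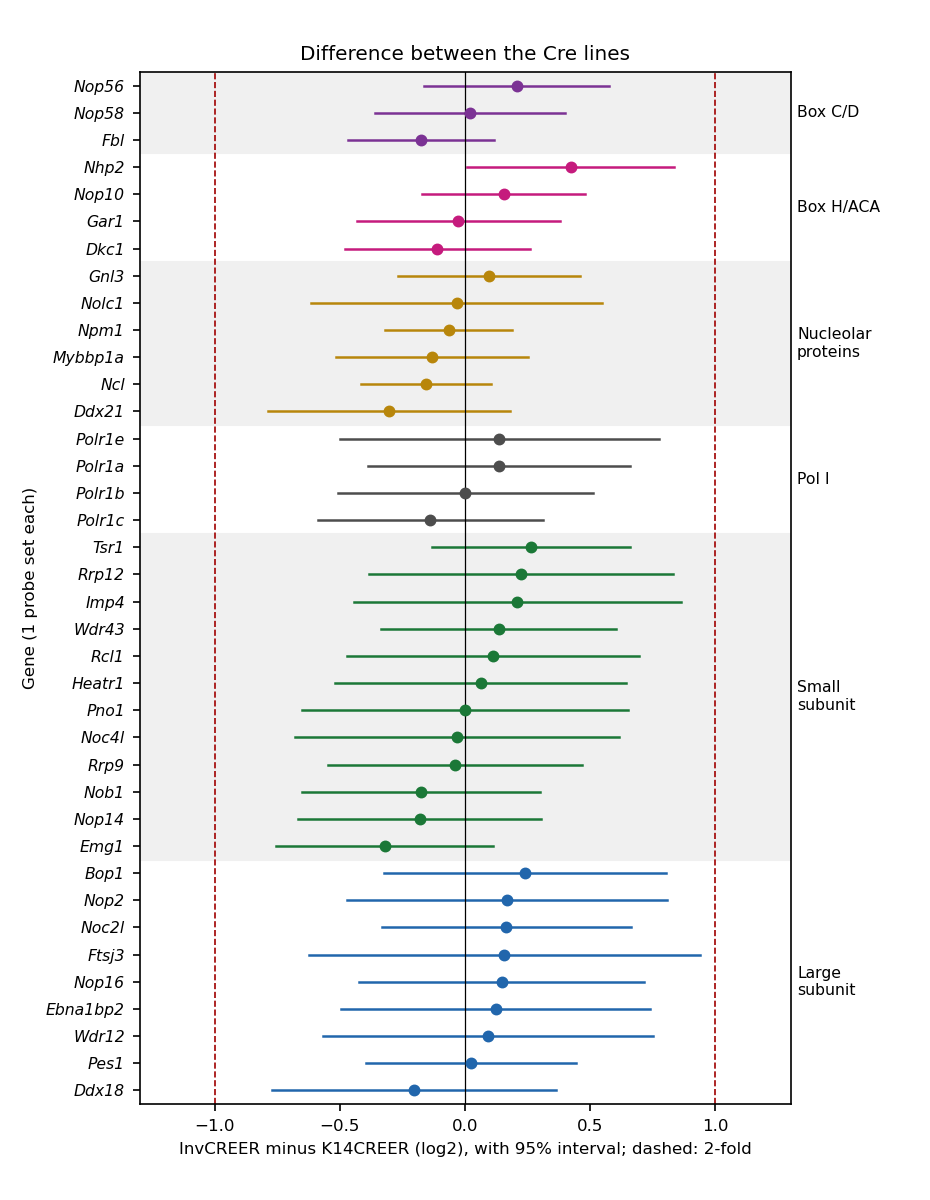
Difference between the lines (InvCREER minus K14CREER, log2 units, horizontal axis) for the 38 members, 1 probe set per gene, grouped by role. Points are differences of means of 2 arrays per line, bars are 95% limma intervals and dashed lines mark 2-fold; all 38 bars end inside them and only that of Nhp2 does not cross 0.

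The sign of the small median shift turned when K14CREER 1 or InvCREER 2 was left out. Without K14CREER 1 the median member difference was -0.06, with 25 of 38 genes lower in InvCREER, and without K14CREER 2 it was 0.13, with 13 lower. Without InvCREER 1, the array that stood apart, it was 0.04, and without InvCREER 2 it was -0.02. The median member level had an SD of 0.12 between arrays of 1 line. With 2 arrays per line, a median with 1 array left out can hardly move beyond that SD. The comparison with the SD therefore does not show that the median is stable. Single genes moved more than the median did. Without InvCREER 1 the difference changed sign in 6 of the 38 genes, became over 1.5 times smaller in 10 and over 1.5 times larger in 10, and ran from -0.24 for Nop14 to 0.55 for Nhp2. The median level of the 38 genes was 9.52 on K14CREER 1, 9.73 on K14CREER 2, 9.57 on InvCREER 1 and 9.69 on InvCREER 2.

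**Figure D2:**
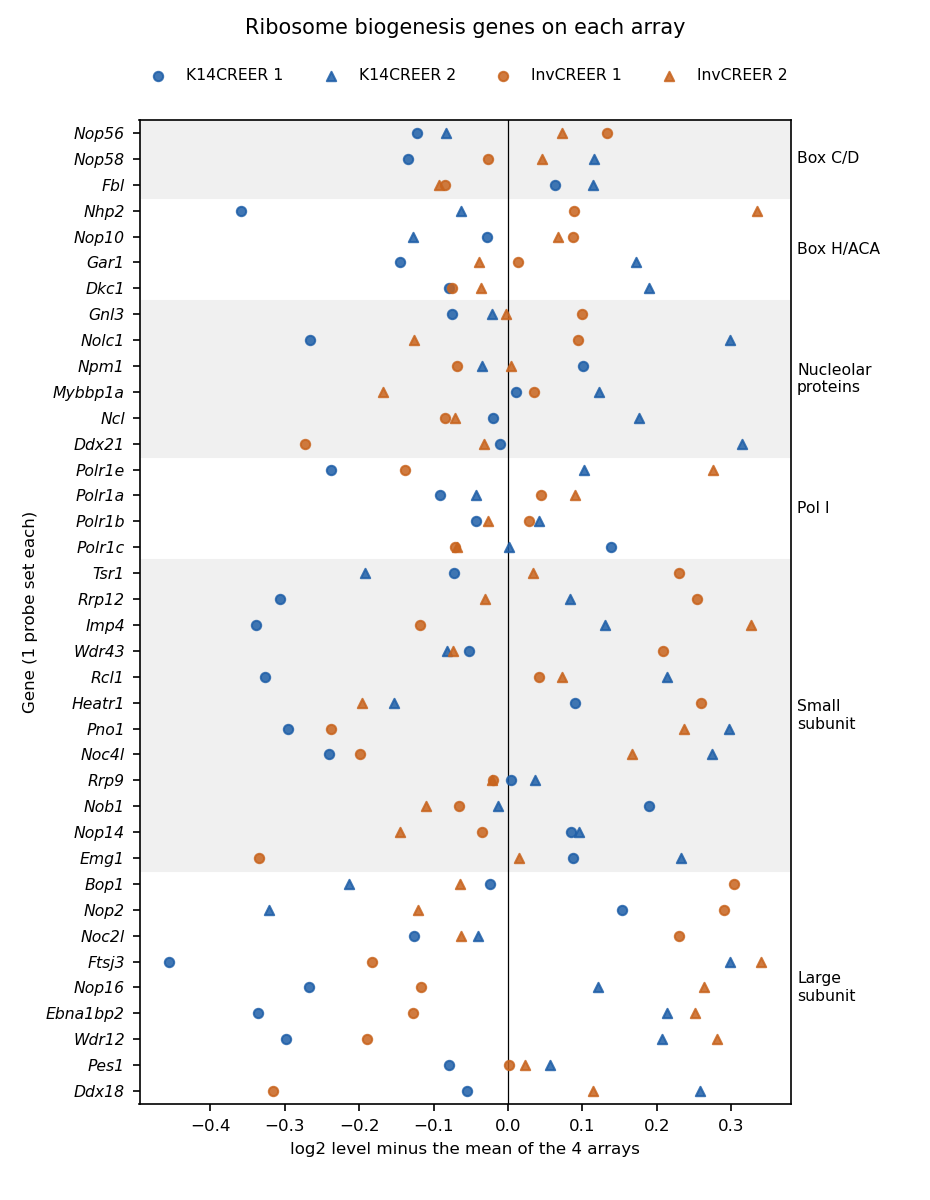
Log2 level of each member on each of the 4 arrays, minus the gene's mean over the arrays (horizontal axis), with genes grouped by role on the vertical axis. Blue marks K14CREER and orange InvCREER, circles number 1 and triangles number 2; the colours overlap in 24 of the 38 genes, and for the large subunit factors Ftsj3, Nop16, Ebna1bp2 and Wdr12 both circles lie left of both triangles.

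The letters of the E-box were looked for in the members' promoters, since MYC is the known regulator of this gene class. The promoter windows were those of RefSeq on GRCm38.p6, each with 250 bases before and 50 after a gene's start, and 35 of the 39 members had one. CACGTG, which reads the same on both strands, occurred in the windows of 7 members, a share of 20%, against 8.09% of all 27025 genes with a window and 12% of the 9145 tested genes with one. The matches are shown here, with the 6 letters in capitals, because they set these 7 members apart by sequence from those whose windows lack the letters. In Imp4 and Nop2 the first letter lay 121 and 60 bases before the start, and in the other 5 it was base 3 to 41 of the transcript.
Imp4, chr1:34439696-34439725, plus strand: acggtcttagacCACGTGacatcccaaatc
Nop2, chr6:125131811-125131840, plus strand: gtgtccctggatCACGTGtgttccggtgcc
Pes1, chr11:3963965-3963994, plus strand: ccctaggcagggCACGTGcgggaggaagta
Wdr43, chr17:71616220-71616249, plus strand: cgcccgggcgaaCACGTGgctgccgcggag
Tsr1, chr11:74898092-74898121, plus strand: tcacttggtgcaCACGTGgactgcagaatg
Pno1, chr11:17211540-17211564, minus strand: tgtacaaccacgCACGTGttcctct
Mybbp1a, chr11:72441355-72441376, plus strand: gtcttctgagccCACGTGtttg

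The 7 members with these letters had a median difference of 0.13 (range -0.13 to 0.26), and the 27 measured members with a window that lacks them 0.02. This contrast was not tested. Imp4, Nop2, Pes1 and Pno1 changed sign in at least 1 fit with 1 array left out, and Mybbp1a, Tsr1 and Wdr43 did not. The letters CGCGAGA, read on both strands, were searched as well. They occurred in 6 members (17.1%), namely Noc2l, Nop14, Nop58, Polr1c, Tsr1 and Wdr12, against 2.92% of all genes with a window and 5.94% of tested genes with one. These members had a median difference of 0.06. Tsr1, whose product helps mature the small subunit, held both, the second of them 66 bases before its start.
Tsr1, chr11:74898003-74898031, plus strand: gcaaaaaacctCGCGAGAggtcgcggaag

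The box C/D snoRNP core, which methylates ribosomal RNA, split by direction. Fbl, the methyltransferase fibrillarin, was at 11.64 and 11.69 in K14CREER against 11.49 and 11.49 in InvCREER. Nop56, a scaffold protein of the same particle, was at 10.37 and 10.41 in K14CREER against 10.62 and 10.56 in InvCREER. On these probe sets neither gene overlapped between the lines, Fbl being lower and Nop56 higher in InvCREER. The differences were -0.18 (SE 0.12, adjusted p = 0.634 by limma) and 0.21 (SE 0.15, adjusted p = 0.677 by limma). Their second probe sets had the same signs, at -0.23 for Fbl and 0.086 for Nop56, but the lines overlapped on both. Nop58, the partner of Nop56, was at 10.77 and 11.02 in K14CREER against 10.88 and 10.95 in InvCREER. Its InvCREER arrays lay between the K14CREER arrays, with a difference of 0.02 (95% interval -0.36 to 0.40).

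The box H/ACA core, which converts uridine in ribosomal RNA to pseudouridine and also binds telomerase RNA, held the member with the largest difference. Nhp2, one of its small core proteins, was at 10.77 and 11.07 in K14CREER against 11.22 and 11.46 in InvCREER. Both InvCREER arrays lay above both K14CREER arrays, and its means were 10.92 ± 0.21 and 11.34 ± 0.17 (SD, n = 2 per line). The difference was 0.42 (SE 0.17), or 1.34-fold, with a 95% interval of 0.01 to 0.84 and an adjusted p of 0.349 by limma. Without K14CREER 1 it was 0.27, and Nop2 was then the highest at 0.41. This Nhp2 probe set is of a type that can match several transcripts. The second probe set of Nhp2, which is not of that type, had the same sign. It was at 9.68 and 9.91 in K14CREER against 10.06 and 10.64 in InvCREER (difference 0.56, adjusted p = 0.383 by limma). Nop10, another small core protein, was at 11.13 and 11.03 in K14CREER against 11.24 and 11.22 in InvCREER, again without overlap. Its difference was 0.16, and 0.32 on its second probe set. The enzyme of the particle did not follow: Dkc1, the pseudouridine synthase dyskerin, was at 11.05 and 11.32 in K14CREER against 11.05 and 11.09 in InvCREER. Gar1, which binds dyskerin, was at 10.67 and 10.99 against 10.83 and 10.78. Both overlapped between the lines, with differences of -0.11 and -0.03.

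Of the 6 abundant nucleolar proteins and regulators of ribosomal RNA synthesis, 5 had lower means in InvCREER, with a median of -0.10. Ddx21, an RNA helicase that acts in transcription and processing of ribosomal RNA, was at 10.05 and 10.38 in K14CREER against 9.79 and 10.03 in InvCREER. The lines did not overlap, though K14CREER 1 and InvCREER 2 lay close together. The difference was -0.30 (SE 0.20, adjusted p = 0.616 by limma), and its other tested probe set had the opposite sign, at 0.05. Ncl, the abundant nucleolar protein nucleolin, was at 12.65 and 12.85 in K14CREER against 12.59 and 12.60 in InvCREER. It too did not overlap, and all 4 of its tested probe sets were lower in InvCREER, by 0.16 to 0.27 (the first adjusted p = 0.638 by limma). Npm1, the histone chaperone nucleophosmin, was at 12.59 and 12.46 against 12.42 and 12.50, a difference of -0.07. Its arrays overlapped between the lines.

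Nolc1, a chaperone of snoRNPs, was at 9.62 and 10.19 in K14CREER against 9.98 and 9.76 in InvCREER, so that both InvCREER arrays lay between those of K14CREER. Its difference was -0.03 (95% interval -0.61 to 0.55). Mybbp1a, a nucleolar repressor of transcription, was at -0.13. Gnl3, the GTPase nucleostemin of dividing and stem cells, was at 10.59 and 10.65 in K14CREER against 10.77 and 10.66 in InvCREER. It was the 1 gene of the group with a higher mean in InvCREER, by 0.10 without overlap (adjusted p = 0.881 by limma).

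Of the 4 RNA polymerase I subunits 3 had a higher mean in InvCREER, and the median size of their differences was 0.14, as over all members. Polr1b, which forms the active centre with Polr1a, was at 8.25 and 8.33 in K14CREER against 8.32 and 8.26 in InvCREER, a difference of 0.0019 (95% interval -0.51 to 0.51). Polr1c, a subunit shared with RNA polymerase III, was at 9.59 and 9.45 against 9.38 and 9.39, lower in InvCREER by 0.14 without overlap (adjusted p = 0.854 by limma) but with overlap on its second probe set (-0.28). Polr1e, which helps the enzyme start transcription, was at 7.56 and 7.90 against 7.66 and 8.07 (difference 0.14), so that it was the array number and not the line that separated its values. Polr1a, the largest subunit, was at 7.76 and 7.81 against 7.89 and 7.94, without overlap. Its 3 tested probe sets did not share a direction, with differences of 0.13, 0.29 and -0.26.

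The 12 small subunit factors divided evenly, 6 with a higher and 6 with a lower mean in InvCREER. Emg1, a methyltransferase of the small subunit RNA, was at 10.80 and 10.95 in K14CREER against 10.38 and 10.73 in InvCREER. Both InvCREER arrays were below both K14CREER arrays. This was the lowest difference of the set, -0.32 (SE 0.18), or 1.25-fold, with a 95% interval of -0.76 to 0.11 and an adjusted p of 0.531 by limma. Without InvCREER 1 it was -0.15, and Nop14 was then the lowest. Tsr1 was at 10.47 and 10.35 in K14CREER against 10.77 and 10.57 in InvCREER. It was higher in InvCREER without overlap, by 0.26 (SE 0.16, adjusted p = 0.586 by limma). Its second probe set was at 0.10, with overlap, and both are of the type that can match several transcripts.

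Pno1 and Nob1 act together in the last cut of the small subunit RNA. Pno1 was at 9.79 and 10.39 in K14CREER against 9.85 and 10.33 in InvCREER, a difference of -0.00099 (95% interval -0.65 to 0.65), with number 1 low and number 2 high in both lines. Nob1, the endonuclease itself, was at 9.40 and 9.20 against 9.15 and 9.10, lower by 0.18 without overlap (adjusted p = 0.818 by limma). Nop14 (-0.18) and Rrp9 (-0.04), which binds the U3 snoRNA, were also lower without overlap. The remaining 6 overlapped, from -0.03 for Noc4l to 0.22 for Rrp12. They included Imp4, of the U3 particle, at 0.21, Wdr43 at 0.13, Rcl1 at 0.11 and Heatr1 at 0.06. The other tested probe set of Heatr1 was at 0.42, where InvCREER 1 read 7.34 and the remaining arrays 6.41 to 6.65.

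Of the 9 measured large subunit factors 8 had a higher mean in InvCREER, with a median of 0.15, and the arrays of the lines overlapped in all 9. This tally rested on single arrays: without K14CREER 1, 3 were higher and 6 lower, with a median of -0.05, and without InvCREER 2, 4 were higher and 5 lower, with a median of -0.04. Without InvCREER 1, 8 were higher, with a median of 0.05. Bop1, Pes1 and Wdr12 form a complex that large subunit maturation requires. Bop1 was at 8.61 and 8.42 in K14CREER against 8.94 and 8.57 in InvCREER, a difference of 0.24 (SE 0.23, adjusted p = 0.777 by limma) that was 0.055 without InvCREER 1. Pes1 was at 9.82 and 9.96 against 9.91 and 9.93, a difference of 0.02. Wdr12 was at 8.76 and 9.27 against 8.87 and 9.34 (0.09), with the number 2 arrays high in both lines.

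The 1 large subunit factor with a lower mean in InvCREER was the RNA helicase gene Ddx18, at 9.44 and 9.76 in K14CREER against 9.18 and 9.61 in InvCREER. Its difference was -0.20 (SE 0.23, adjusted p = 0.825 by limma). Nop2, a methyltransferase of large subunit RNA, was at 0.17, Noc2l at 0.17, Ftsj3, also a methyltransferase, at 0.16, Nop16 at 0.15 and Ebna1bp2 at 0.12. All of these overlapped between the lines.

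Of the 22 member genes with more than 1 tested probe set, all probe sets shared a sign in 14, and in 8 at least 1 had the opposite sign. The 8 were Ddx21, Dkc1, Imp4, Noc4l, Nolc1, Pes1, Polr1a and Wdr43, so that their direction rests on the probe set chosen. Like Nhp2, the genes Fbl, Nop56, Gar1, Polr1c, Polr1e, Noc4l and Tsr1 were read on probe sets that can match several transcripts. Gar1 and Tsr1 had no tested probe set of another type.

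The array number, 1 or 2, separated several members more than the Cre line did. What the number stands for is not stated in the labels. Number 2 was higher than number 1 in both lines for 18 of the 38 genes, a share of 47.4%, against 38.3% of all tested genes. The number difference was larger than the line difference in 20 members (52.6%), against 46.4% of tested genes. In K14CREER 29 of 38 members (76.3%) were higher on number 2, against 54.9% of all tested genes. In InvCREER it was 20 of 38 (52.6%), against 56.5%. The members' median number differences (1 minus 2) were -0.14 in K14CREER and -0.01 in InvCREER. Over all tested genes these medians were -0.04 and -0.05.

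Large subunit factors differed most by number. Ftsj3 was at 8.51 and 8.78 on the number 1 arrays of K14CREER and InvCREER and at 9.26 and 9.31 on the number 2 arrays. Both number 1 arrays lay below both number 2 arrays, with a number coefficient (1 minus 2) of -0.64 (SE 0.16) in a limma fit of line and number. Ebna1bp2 was at 9.42 and 9.63 on number 1 and 9.97 and 10.01 on number 2, a coefficient of -0.46. Wdr12 was at -0.49, Nop16 at -0.39 and Ddx18 at -0.37, and among small subunit factors Pno1 was at -0.53, Imp4 at -0.46 and Noc4l at -0.44. Some members ran the other way. Nop2 was at 9.02 and 9.16 on number 1 and 8.54 and 8.74 on number 2 (0.44), and Heatr1 was at 0.35 and Bop1 at 0.28.

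None of these number differences passed the test: limma gave 0 members an adjusted p under 0.05, the lowest being 0.186 for Ftsj3 and Pno1, and called 0.00444% of all tested probe sets. At an unadjusted p under 0.05 there were 10 of 38 members, against 17.2% of tested genes, and 6 of the 10 were large subunit factors. G2 and mitosis genes moved with the number as well. Of 24, 21 were higher on number 2 in both lines, with medians (1 minus 2) of -0.58 in K14CREER and -0.31 in InvCREER. The 3' to 5' ratio of Actb was higher on number 1 than on number 2 in both lines (0.94 against 0.68, and 1.24 against 0.77). Their part in the members' number difference was not tested. Between same-numbered arrays the median member difference was 0.11 for number 1 and -0.05 for number 2.

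**Figure D3:**
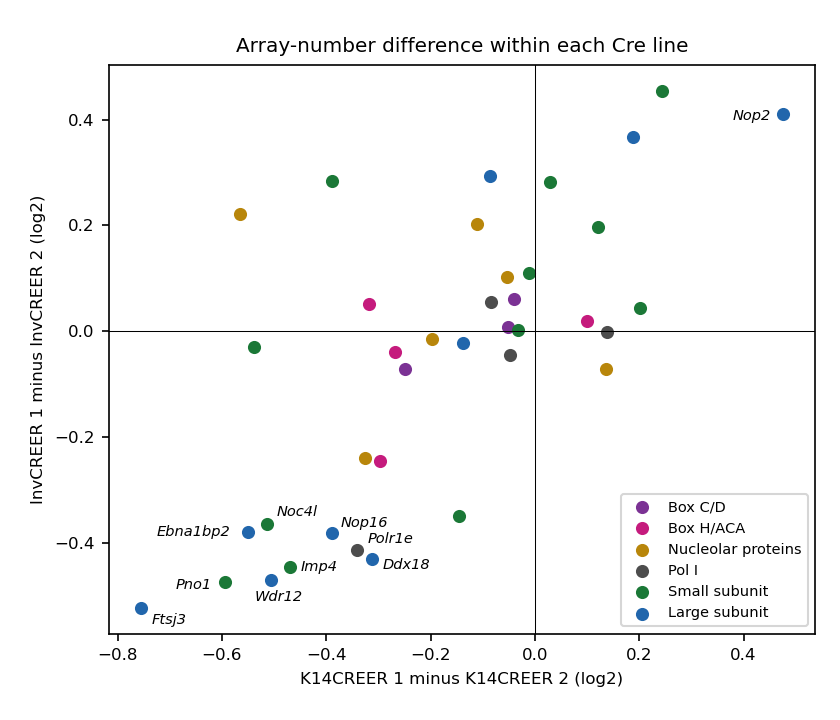
Number 1 minus number 2 for each of the 38 members, in K14CREER (horizontal axis) and InvCREER (vertical axis), in log2 units, coloured by role. The named genes have a number coefficient of at least 0.37 in size; Ftsj3, Pno1, Wdr12, Ebna1bp2, Imp4, Noc4l, Nop16, Polr1e and Ddx18 were lower on number 1 in both lines and Nop2 was higher.

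Other genes of the pathway came from lists of factors outside the set, and they were not tested against the members. Of 100 tested factors of snoRNP assembly, RNA polymerase I and both subunits, limma called 0, with 2 at an unadjusted p under 0.05. Their median difference was 0.02, and 0 of 100 differed by 1.5-fold. The 95% interval stayed inside 2-fold for 94 of them. Among 34 small subunit factors the lowest was Ddx52 (-0.46) and the highest Wdr46 (0.49, adjusted p = 0.368 by limma). Among 48 large subunit factors the lowest was Nop53, at 12.46 and 12.52 in K14CREER against 12.19 and 12.09 in InvCREER (-0.35, adjusted p = 0.199 by limma), and the highest was Ddx56 (0.44).

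The 8 snoRNP assembly factors all had lower means in InvCREER, from -0.40 for Ruvbl2, an ATPase of the particle's assembly, to -0.05 for Shq1, a chaperone of dyskerin, with a median of -0.22. Of the 8, 4 did not overlap, against the 24.1% of all tested genes that lay lower in that way. Of 10 other polymerase I subunits and factors the lowest was Twistnb (-0.25) and the highest Cd3eap, a polymerase subunit, at 7.41 and 7.47 in K14CREER against 8.02 and 7.87 in InvCREER (0.51, adjusted p = 0.391 by limma). Among 13 exosome genes, which trim ribosomal RNA precursors, the lowest was Exosc8 (-0.40) and the highest Exosc7 (0.34). In 11 of the 13 number 2 was higher in both lines.

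The gene of MYC itself was not called, which does not show that its level was the same in both lines. Myc was at 9.92 and 9.69 in K14CREER against 10.04 and 9.80 in InvCREER, a difference of 0.11 (SE 0.19, adjusted p = 0.897 by limma) with overlap. Mycl, a relative of Myc, had the highest difference of the 11 network genes, 0.72 (SE 0.19, adjusted p = 0.151 by limma). It was at 9.89 and 10.29 in K14CREER against 10.83 and 10.79 in InvCREER, without overlap. Mxd3, of the family that competes with MYC for the partner MAX, had the lowest, at -0.62 (adjusted p = 0.526 by limma), with 6.99 and 7.80 in K14CREER against 6.55 and 7.002 in InvCREER. None of the 11 was called.

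Cytosolic ribosomal proteins, the other part of the ribosome, had a median difference of -0.04 over 43 tested genes, with 0 called by limma and 2 at an unadjusted p under 0.05. Of the 78 listed, 44 had a probe set named for them alone. The lowest was Rps6 (-0.54) and the highest Rpl12, at 8.21 and 8.56 in K14CREER against 9.19 and 8.997 in InvCREER (0.71, adjusted p = 0.237 by limma).

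Genes of division and differentiation had larger differences between the lines in the same arrays. Of 24 G2 and mitosis genes all had lower means in InvCREER, with a median of -0.86, and 23 did not overlap, against the 24.1% of all tested genes that lay lower without overlap. limma called 0 of them, against 1.33% of all tested genes, and 21 had an unadjusted p under 0.05, against 16.1%. Differences ran from -1.82 for Birc5 to -0.66 for Ncapg, so that each of the 24 lay below each of the 38 ribosome biogenesis genes, whose lowest was -0.32. All 7 spinous markers had higher means in InvCREER, without overlap, against 21.3% of all tested genes that lay higher in that way. limma called 6 of them, among them Dsc1, which rose by 3.06 (adjusted p = 0.00451 by limma). All 8 basal markers had lower means without overlap and an unadjusted p under 0.05. limma called 1 of them, Krt15, which fell by 1.38 (adjusted p = 0.0212 by limma). These lists were chosen with earlier results of these data known, and their difference from the ribosome biogenesis genes was not tested.

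**Figure D4:**
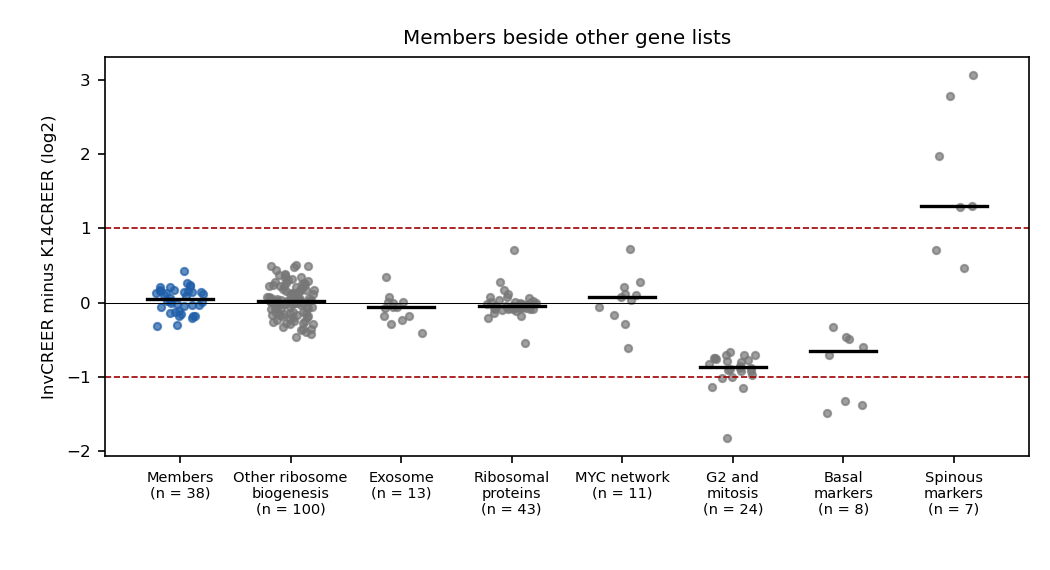
Difference between the lines (InvCREER minus K14CREER, log2 units, vertical axis) for each tested gene of the members and of 7 other lists, 1 point per gene, with a bar at the median and dashed lines at 2-fold. The members lie between -0.32 and 0.42 around a median of 0.04, the G2 and mitosis genes around -0.86 and the spinous markers around 1.29.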

How the data were processed

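Gene expression was measured on 4 arrays, 2 per Cre line, from 100 ng of total RNA each, amplified from the 3' end, per the labels' protocols. The submitters' processing notes name RMA and Affymetrix Expression Console 1.1, and the authors deposited the resulting log2 values. Array medians were 5.41 to 5.44. Because RMA equalises the arrays' distributions, a global shift in RNA content would not be visible.

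Of 45101 probe sets 64 controls were set aside, and 22519 with a mean at or above the median of the rest (5.42) were tested, 68 of the members' 78 among them. Gene symbols came from the platform annotation and were checked by Entrez number in a RefSeq table of GRCm38.p6. Of 45037 probe sets, 34945 had 1 symbol, 932 several and 9160 were unnamed here. A gene was read on its tested probe set with the highest mean. The lines were compared in limma 3.58.1 under R 4.3.3 (lmFit, eBayes with a mean-variance trend, 2-sided, no block), with Benjamini-Hochberg adjustment over all tested probe sets at 0.05. The array number was tested as a term beside the line. With 2 arrays per line the smallest exact permutation p is 0.333. The number of arrays limits the precision.

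The members and all lists were chosen with earlier results of these data known. Values on every array were given for the 2 largest and the smallest difference in each role group, and, in each other list, the genes with the lowest and the highest difference were named. Further members were given array by array, and Myc was named, after their values had been seen. On simulated data of the 22519 probe sets the test recovered 5% of probe sets changed by a log2 value of 1 and 67% of those changed by 2, with 2 of 74 calls false. Alternatives changed the filter, the variance trend, the weights, the scaling, the block, the arrays included and the probe sets used. Figures were drawn with matplotlib 3.10.9.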

Additional observations from a re-analysis of the deposited data

How the results depend on the processing

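Of the 14 alternatives, none that kept all 4 arrays called a member. Over the 14 the median member difference ran from -0.06 without K14CREER 1 to 0.13 without K14CREER 2. The lowest adjusted p was 0.0857 for Nhp2 with the array number as a replicate block (limma). Same-numbered arrays deviated together (r = 0.380 across probe sets), but with 2 numbers the labels do not show that they pair the samples. The block raised the calls over all probe sets from 216 to 1390, and members at an unadjusted p under 0.05 from 1 to 2. That member count was 0 without the variance trend and without probe sets that match several transcripts. Calls over all probe sets were 405 with the stricter filter, 122 without the variance trend, 450 with the mean of a gene's probe sets and 551 with 1 probe set per gene; leaving out K14CREER 1 gave 82, K14CREER 2 143, InvCREER 1 499 and InvCREER 2 981, the lone array of a line being assumed to vary like the other line. Array weights came out equal. The median number difference of members was -0.07, was -0.023 with median centring and -0.028 with quantile normalization, and ran from -0.17 (without InvCREER 1) to -0.0081 with 1 array left out. With 1 array left out 19 members kept their sign in all 4 fits and 19 did not. The ranges of the latter were -0.13 to 0.0025 for Npm1, -0.040 to 0.044 for Polr1b, -0.045 to 0.092 for Pes1, -0.16 to 0.38 for Rcl1, -0.048 to 0.34 for Nop16, -0.026 to 0.44 for Imp4, -0.15 to 0.40 for Ebna1bp2, -0.070 to 0.34 for Polr1e, -0.16 to 0.34 for Wdr12, -0.11 to 0.14 for Nop58, -0.22 to 0.53 for Ftsj3, -0.18 to 0.13 for Gar1, -0.069 to 0.41 for Nop2, -0.17 to 0.29 for Heatr1, -0.32 to 0.25 for Nolc1, -0.25 to 0.023 for Dkc1, -0.29 to 0.22 for Noc4l, -0.30 to 0.30 for Pno1 and -0.42 to 0.013 for Ddx18. The cause was not tested.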
